A study of Mus musculus with 19 samples.

Results

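Frzb (secreted frizzled-related protein 3), Sfrp1, Sfrp2, Sfrp4, Sfrp5, Dkk1, Dkk2, Dkk3 and Wif1 were followed across 19 Affymetrix arrays of mouse hippocampal RNA. They are 9 of the 19938 genes measured, named by symbol, and each had a probe set bearing its symbol alone. Where a gene has several such probe sets, the one with the highest mean over all arrays stands for it. The members were thus chosen by family name and by that mean level, with other results of these arrays already known, so their values describe these arrays and are not independent support for a pattern. The arrays fall into 4 groups of mice aged 6 months: wild-type on control chow (n = 4), wild-type on ibuprofen chow (n = 5), and mice of the APPSwe-PS1deltaE9 genotype, here APP-PS1, on control chow (n = 5) and on ibuprofen chow (n = 5). All are of the C57BL/6J strain and the wild-type mice are littermates of the APP-PS1 mice. Ibuprofen, an inhibitor of the cyclooxygenases that make prostaglandins, was given at 375 ppm in chow from 3 to 6 months of age, and controls ate that chow without it. The APP-PS1 mice carry 2 disease transgenes, a mutant amyloid precursor protein and a presenilin that lacks an exon, which are driven by a prion gene promoter and form amyloid plaques.

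Wnt proteins are secreted signals that bind Frizzled receptors and the co-receptors Lrp5 and Lrp6, which stabilises β-catenin and switches on target genes with TCF and LEF factors. Frzb and the Sfrp proteins carry a Frizzled-like cysteine-rich domain and bind Wnt proteins outside the cell, as Wif1 does with a domain of its own. Dkk1 and Dkk2 instead bind the Lrp co-receptors, while Dkk3 is a divergent relative whose action on the pathway is less settled. In the hippocampus Wnt signals act on progenitors of the dentate gyrus and on synapses, and Frzb (sFRP3) is known in mice as a product of dentate granule neurons that restrains adult neurogenesis.

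The 250 bases before the start of transcription are shown for 3 members, from RefSeq on GRCm38.p6, 5′ to 3′ on the strand of the gene. Frzb is shown because it carried the one called difference, Sfrp5 because it varied with choroid plexus transcripts, and Dkk1 because it alone held TCF/LEF words. Frzb lies on the minus strand at chr2:80447397-80447646, Sfrp5 on the minus strand at chr19:42202253-42202502 and Dkk1 on the minus strand at chr19:30549497-30549746.
Frzb: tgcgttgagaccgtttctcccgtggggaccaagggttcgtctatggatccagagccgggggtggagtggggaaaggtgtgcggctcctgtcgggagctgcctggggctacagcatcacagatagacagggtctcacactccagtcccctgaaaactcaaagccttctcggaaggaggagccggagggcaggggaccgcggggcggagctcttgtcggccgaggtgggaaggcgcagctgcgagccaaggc
Sfrp5: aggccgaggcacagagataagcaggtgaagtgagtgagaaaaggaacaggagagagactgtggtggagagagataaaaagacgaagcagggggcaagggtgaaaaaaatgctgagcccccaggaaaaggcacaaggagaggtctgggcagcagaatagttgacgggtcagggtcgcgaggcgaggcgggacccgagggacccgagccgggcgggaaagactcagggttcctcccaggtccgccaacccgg
Dkk1: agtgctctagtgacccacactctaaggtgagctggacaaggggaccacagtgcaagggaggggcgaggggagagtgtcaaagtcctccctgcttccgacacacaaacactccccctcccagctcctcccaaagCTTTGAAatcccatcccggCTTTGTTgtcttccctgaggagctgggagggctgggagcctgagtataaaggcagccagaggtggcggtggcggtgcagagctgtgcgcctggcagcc
Capitals mark matches to 4 words for TCF/LEF factors, searched on both strands. The first word was CTTTGAA and the second of the words was CTTTGAT, while the third word was CTTTGTA and the last of the words was CTTTGTT. Dkk1 held 2 matches, which begin 117 and 98 bases before the start. The windows of Frzb, Sfrp2, Sfrp5, Dkk2 and Wif1 held no match to these letters. Over 32851 mouse promoter windows of the same length, 14.8% held at least 1. Promoter windows were at hand for 6 of the 9 members, and Sfrp1, Sfrp4 and Dkk3 are named only.

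The values are log2 expression levels. Array medians ran from 8.06 to 8.14, and the correlation between any pair of arrays lay between 0.980 and 0.999. App, the gene the transgene copies, and Prnp, whose promoter drives it, were above every wild-type array in 10 of 10 APP-PS1 arrays. Marker means of the hippocampal cells ran from 10.87 to 11.30 for CA1 and from 9.50 to 9.88 for CA3 pyramidal cells, and over a wider span, 9.62 to 10.45, for dentate granule cells. Choroid plexus markers, which belong to a neighbouring tissue, ranged from 7.70 to 10.42 and varied widely within each group. Wild-type ibuprofen chow replicate 5 had the lowest median correlation with the other arrays, 0.987. That array, wild-type ibuprofen chow replicate 1 (0.992) and APP-PS1 control chow replicate 1 (0.994) were known from an earlier analysis to stand apart, although APP-PS1 ibuprofen chow replicate 4 correlated as low as the last of them here. The called result is also given without these 3. The files carry no detection call, so whether a dim member was above background is unknown.

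Frzb (probe set 10484307, on chromosome 2) was highest in wild-type mice on ibuprofen and lowest in APP-PS1 mice on ibuprofen. In wild-type mice on control chow its log2 level was 9.56, 9.67, 9.41 and 9.57, and in wild-type mice on ibuprofen it was 9.86, 9.87, 9.80, 9.71 and 9.94. Every wild-type array on ibuprofen thus lay above every wild-type array on control chow. In APP-PS1 mice on control chow it was 9.36, 9.43, 9.70, 9.58 and 9.58, and on ibuprofen it was 9.25, 9.53, 8.45, 9.26 and 9.32. The APP-PS1 groups overlapped, and replicate 3 on ibuprofen, at 8.45, lay far below the rest of its group. By mean the order was wild-type ibuprofen (9.84 ± 0.09, SD, n = 5), wild-type control (9.55 ± 0.11, SD, n = 4), APP-PS1 control (9.53 ± 0.13, SD, n = 5) and APP-PS1 ibuprofen (9.16 ± 0.42, SD, n = 5). The middle groups did not differ beyond their spread.

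**Figure D1:**
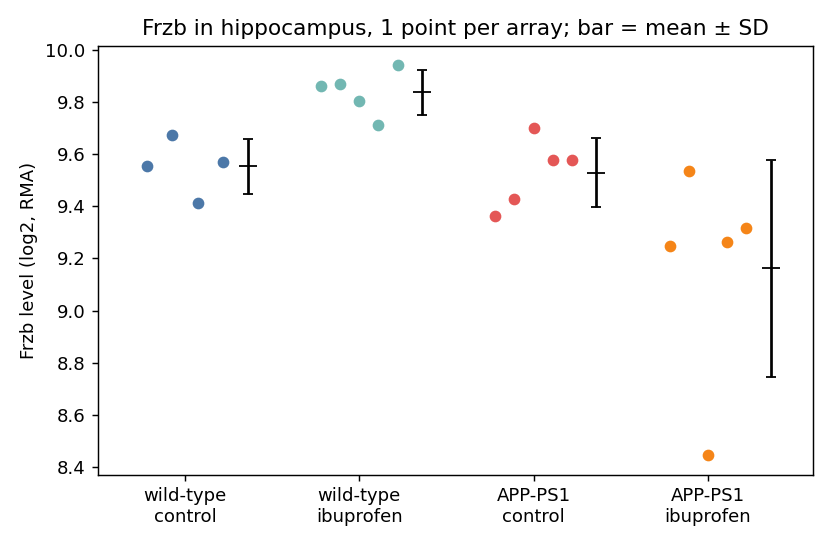
Log2 level of Frzb on the y axis for each array (points) in the 4 groups, with the group mean ± SD as a bar at the right of each group. All 5 APP-PS1 arrays on ibuprofen lie below all 5 wild-type arrays on ibuprofen, and 1 of them sits at 8.45.

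The first comparison asked how the genotypes differ when both ate ibuprofen. Frzb was lower in APP-PS1 mice by a log2 difference of -0.67 ± 0.13 (SE), or 0.627 times the wild-type level (limma, adjusted p = 0.0207 over all genes). The highest APP-PS1 array was below the lowest wild-type array on that diet, a separation in this direction shared by 2.06% of all genes. In this comparison 1 of 9 members was called at an adjusted p under 0.05, beside 0.271% of all genes. With APP-PS1 ibuprofen chow replicate 3 dropped it was -0.50 and still called (limma adjusted p = 0.0160). When the 3 arrays that stand apart were left out the difference was -0.63 and the call ended (limma adjusted p = 0.141). It also ended with quantile normalization (-0.60), with array median centring (-0.61), and when replicate 4 of the APP-PS1 group (-0.70) or replicate 1, 2, 3 or 5 of the wild-type group (-0.68 to -0.65) was dropped, with limma adjusted p of 0.0517 to 0.0661.

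The same gene gave no call on control chow, where the genotypes differed by -0.02 ± 0.14 (SE, limma adjusted p = 0.996). No member was called there, beside 0.0100% of all genes. For ibuprofen against control chow the Frzb differences had opposite signs in the genotypes, and neither passed the test. In APP-PS1 mice the difference was -0.37 ± 0.13 (SE, limma adjusted p = 0.716), which became -0.19 once replicate 3 of the ibuprofen group was dropped. In wild-type mice it was 0.28 ± 0.14 (SE, limma adjusted p = 0.432), with 5 of 5 treated arrays above all 4 controls, as for 1.94% of all genes. The interaction of genotype and diet was -0.65 ± 0.19 (SE, limma adjusted p = 0.208), which became -0.47 once that replicate was dropped. No member and 0% of genes passed in the interaction or in either ibuprofen comparison. At an unadjusted p under 0.05 the interaction held 20.5% of all genes, ibuprofen in APP-PS1 mice 6.48% and ibuprofen in wild-type mice 11.0%. Averaged over genotypes, ibuprofen gave a Frzb difference of -0.04 ± 0.10 (SE), with no member and 0% of genes called and 1.74% of genes at an unadjusted p under 0.05. These comparisons share groups, so they are not separate evidence.

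Frzb correlated with the mean of a dentate granule cell marker list across arrays, although not with every marker on it. On control chow the mean of 8 granule cell markers was 9.97 ± 0.05 (SD, n = 4) for wild-type and 9.99 ± 0.05 (SD, n = 5) for APP-PS1 arrays. On ibuprofen chow it was 10.16 ± 0.18 (SD, n = 5) for wild-type and 9.84 ± 0.16 (SD, n = 5) for APP-PS1 arrays. APP-PS1 ibuprofen chow replicate 3, the lowest array for Frzb, was also lowest for these markers at 9.62. Wild-type ibuprofen chow replicate 5, the highest for Frzb, was highest for them at 10.45. Over all 19 arrays Pearson's r was 0.85 (permutation adjusted p = 0.00126) and Spearman's rho 0.85 (permutation adjusted p = 0.00084), adjusted over 126 relations of 9 members with 14 marker lists. Without the 2 arrays farthest from the median of the markers r was 0.85, and after group means were taken out it was 0.71. Arrays were shuffled across groups, and each split by genotype or diet pools 2 groups. These p-values thus also reflect differences between groups. Marker by marker, given as a description with no p, r with Frzb was 0.80 for Dsp, 0.79 for Prox1, 0.75 for Stxbp6, 0.74 for Plk5, 0.56 for Glis3 and 0.42 for Trpc6, but 0.04 for Pdzd2 and 0.03 for C1ql2. For the list mean, r within each genotype and diet was 0.77 over the 9 wild-type arrays (exact permutation p = 0.0105), 0.94 over the 10 APP-PS1 arrays (permutation p = 4e-05), 0.76 over the 9 arrays on control chow (exact permutation p = 0.0233) and 0.87 over the 10 on ibuprofen (permutation p = 0.00097). Spearman's rho in the same order was 0.85, 0.92, 0.83 and 0.90, and all these p-values stayed under 0.05 after adjustment over the 4 splits (highest 0.0233). The splits by genotype and by diet cut the same arrays, so they are not separate evidence. Without the 2 farthest arrays of each split r was 0.67, 0.90, 0.90 and 0.86.

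**Figure D2:**
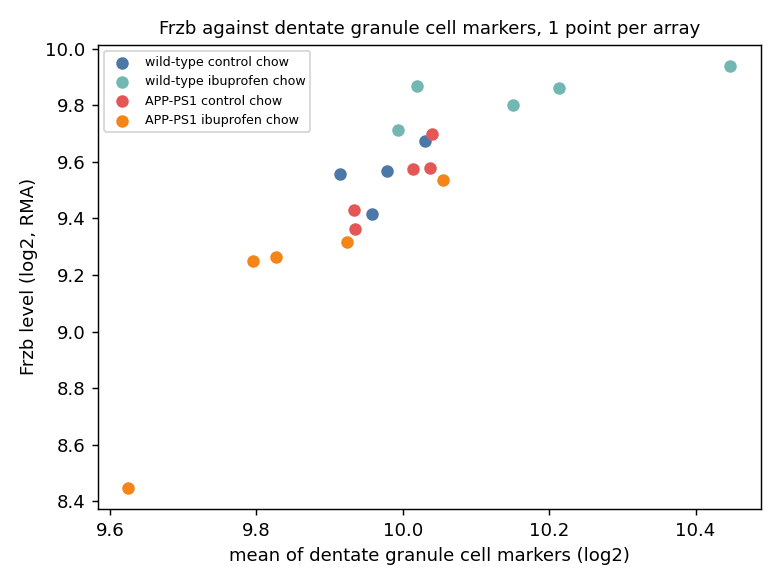
Log2 level of Frzb (y axis) against the mean log2 level of 8 dentate granule cell markers (x axis), 1 point per array, coloured by group. The points rise together, from the APP-PS1 ibuprofen array at 9.62 and 8.45 to the wild-type ibuprofen array at 10.45 and 9.94.

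Of the 8 granule cell markers, 7 were lower in APP-PS1 than in wild-type mice on ibuprofen chow and 2 were called, beside 0.271% of all genes. Over all genes the median difference there was -0.05, with 50 genes called lower and 4 higher. The markers not called were C1ql2 (0.08), Trpc6 (-0.06), Stxbp6 (-0.10), Glis3 (-0.22), Plk5 (-0.23) and Pdzd2 (-0.29). Prox1, the transcription factor that sets granule cell identity, fell by 0.46 ± 0.08 (SE, limma adjusted p = 0.0128), and Dsp, the desmosomal protein desmoplakin, fell by 1.29 ± 0.19 (SE, limma adjusted p = 0.00545). With the mean of these markers as a covariate, an alternative added after the data were seen, the Frzb difference on ibuprofen chow was -0.26 (limma unadjusted p = 0.0683, adjusted p = 0.999). With it the difference was 0.03 for ibuprofen in wild-type mice, -0.18 in APP-PS1 mice and -0.21 for the interaction. That granule cell genes were lower in APP-PS1 mice on ibuprofen was known when this list was used. Fewer cells of a type and less RNA per cell cannot be told apart in these bulk samples, nor can a change in how much dentate gyrus each sample held, and the part of each in the Frzb difference was not tested.

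Frzb was ranked against 19937 genes by Pearson's r over the 19 arrays, and predicted genes without a standard name were skipped. Of the genes left, the 5 most like Frzb began with Il16, an interleukin precursor (0.94), and Lct, the lactase gene (0.94). The others were Lrrtm4, a synaptic adhesion protein (0.93), Sema5a, a semaphorin guidance cue (0.92), and Jph1, a junctophilin that ties membranes together (0.92). Spearman's rho was 0.82 to 0.91, r was 0.84 to 0.91 after group means were taken out, and 0.76 to 0.87 without the 2 arrays farthest for Frzb. In all, 11 genes reached an r of 0.9, counted over the 19937 with none skipped. Being the top of a ranking, these values carry no p. On ibuprofen chow, Il16 was lower in APP-PS1 mice by a log2 difference of -0.51 ± 0.10 (SE, limma adjusted p = 0.0178). Lct gave -0.66 ± 0.13 (SE, limma adjusted p = 0.0315) and Jph1 -0.43 ± 0.07 (SE, limma adjusted p = 0.0128). Lrrtm4 was called too (-0.39), and Sema5a was not (-0.37, limma adjusted p = 0.0946). These 5 genes were picked for following Frzb over the same arrays, so their differences restate the Frzb difference. They are not separate support for it.

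Sfrp1 and Sfrp5, which encode frizzled-related Wnt binders, were the most variable members within groups, with SDs of 0.51 and 0.35 on the log2 scale. Of all genes, 99.6% and 98.9% had a lower SD within groups. Sfrp1 (probe set 10570957, chromosome 8) stood at 8.49, 8.72, 8.05 and 8.18 in wild-type control and at 8.10, 8.02, 8.10, 7.86 and 9.46 in wild-type ibuprofen mice. In APP-PS1 mice it stood at 8.15, 8.17, 8.29, 9.25 and 9.11 on control chow and at 8.95, 8.17, 8.49, 8.14 and 9.05 on ibuprofen. Arrays above 9 occurred in wild-type ibuprofen and in both APP-PS1 groups, and all groups overlapped. Sfrp5 (probe set 10467744, chromosome 19) stood at 7.59, 7.40, 7.57 and 7.57 in wild-type control and at 7.37, 7.39, 7.34, 7.46 and 8.47 in wild-type ibuprofen mice. In APP-PS1 mice it was 7.32, 7.50, 7.52, 8.07 and 8.16 on control chow and 7.94, 7.36, 7.84, 7.89 and 8.05 on ibuprofen. Replicate 5 of wild-type ibuprofen and replicates 4 and 5 of APP-PS1 control were high for both genes.

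Those arrays were also high in choroid plexus markers, at 10.31, 10.42 and 10.02. The 14 measured markers had their widest gap between neighbouring arrays from 8.26 to 9.07, so relations were taken on each side of it. Above the gap (n = 7 arrays) Sfrp1 correlated with the marker mean at r = 0.93 (exact permutation p = 0.00536, adjusted 0.0214 over 4 relations) and rho = 0.82 (exact permutation p = 0.0341, adjusted 0.137). Without the 2 farthest arrays r was 0.71. Below it (12 arrays) r was 0.61 (permutation p = 0.0304, adjusted 0.0608) and rho 0.48 (permutation p = 0.121), and r was 0.38 without the 2 farthest. Sfrp5 gave r = 0.71 above the gap (exact permutation p = 0.0782), with rho 0.68 and 0.36 as r without the 2 farthest, and r = 0.09 below it (permutation p = 0.795), with rho -0.05 and r = 0.05 without the 2 farthest. Sfrp1 ran from 8.49 to 9.46 on the 7 arrays above the gap and from 7.86 to 8.72 on the 12 below. For Sfrp5 the ranges were 7.59 to 8.47 and 7.32 to 7.89.

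**Figure D3:**
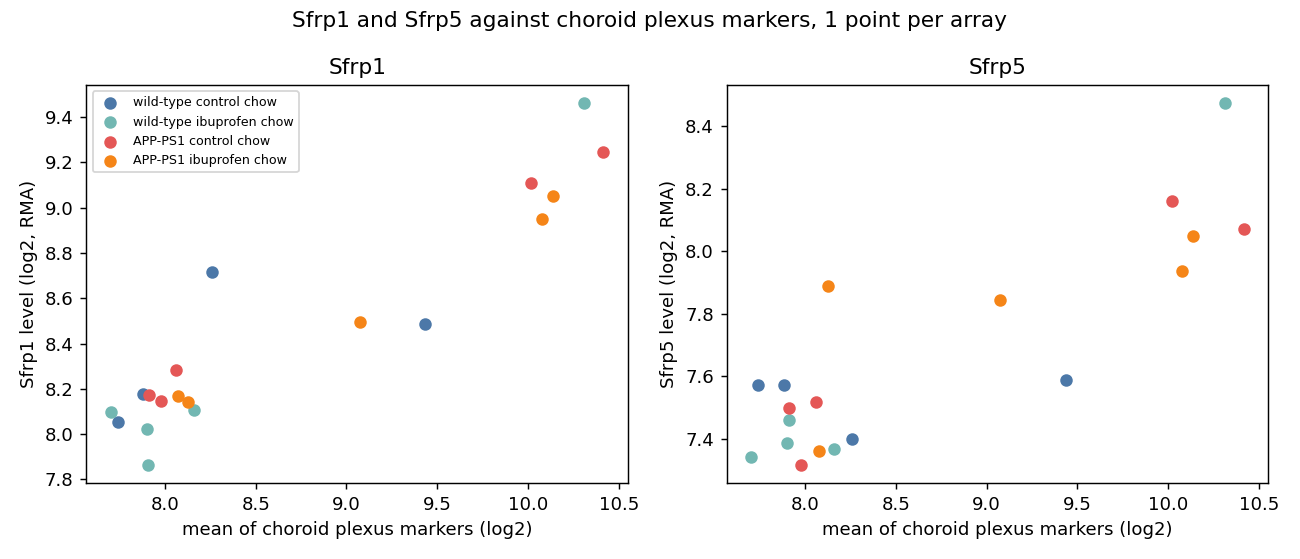
Log2 level of Sfrp1 (left, y axis) and Sfrp5 (right, y axis) against the mean log2 level of 14 choroid plexus markers (x axis), 1 point per array, coloured by group. Sfrp1 runs from 8.49 to 9.46 on the 7 arrays at or above 9.07 and from 7.86 to 8.72 on the 12 at or below 8.26.

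The genes most like Sfrp1 over the arrays were Perp (r = 0.97) and Car14, a carbonic anhydrase (r = 0.97). For Sfrp5 they were Wfdc2 (r = 0.96) and Slc39a4, a zinc transporter (r = 0.95). Between genotypes Sfrp1 gave log2 differences of 0.23 ± 0.29 (SE) on control chow and 0.25 ± 0.27 (SE) on ibuprofen, with 95% intervals of -0.36 to 0.83 and -0.31 to 0.82. Sfrp5 gave 0.18 ± 0.20 (SE) and 0.21 ± 0.19 (SE). For ibuprofen, Sfrp1 gave -0.03 in APP-PS1 and -0.05 in wild-type mice, and Sfrp5 0.10 and 0.07. Their limma adjusted p lay between 0.470 and 0.977. With replicate 5 of the wild-type ibuprofen group dropped, the genotype difference on ibuprofen was 0.54 for Sfrp1 and 0.43 for Sfrp5, still not called. Over 11 alternatives it ran from -0.07 to 0.87 for Sfrp1 and from 0.01 to 0.52 for Sfrp5, lowest with the choroid plexus marker mean as a covariate and highest with the dentate one. Array weights gave 0.71 (limma adjusted p = 0.0578) and 0.48 (limma adjusted p = 0.0507), and none of the 11 made a call.

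Sfrp4 and Sfrp2 varied less within groups and gave no called difference. Sfrp4 (probe set 10403834, chromosome 13), a Wnt binder best known from bone, was 7.41, 7.48, 7.34 and 7.43 in wild-type control and 7.58, 7.11, 7.30, 7.44 and 7.38 in wild-type ibuprofen mice. It was 7.63, 7.50, 7.35, 7.54 and 7.55 in APP-PS1 control and 7.48, 7.47, 7.76, 7.70 and 7.52 in APP-PS1 ibuprofen mice. The APP-PS1 means were above the wild-type means on both diets, with overlap of the arrays. On ibuprofen chow the genotypes differed by 0.22 ± 0.08 (SE, limma adjusted p = 0.150), and averaged over both diets by 0.16 ± 0.06 (SE, limma adjusted p = 0.557). No member passed in that average, beside 0.0251% of all genes, and at an unadjusted p under 0.05 there were 2, Frzb and Sfrp4, beside 7.70%. Sfrp2 (probe set 10492798, chromosome 3) spanned 7.93 to 8.09 in wild-type control and 7.76 to 7.92 in APP-PS1 control mice, without overlap. APP-PS1 arrays all lay below wild-type arrays on control chow for 0.903% of genes, and its size was -0.13 ± 0.10 (SE, limma adjusted p = 0.945). On ibuprofen chow Sfrp2 spanned 7.67 to 8.26 in wild-type and 7.89 to 8.18 in APP-PS1 mice, which overlapped. Sfrp2 correlated with the mean of the striatal markers at r = 0.76 and rho = 0.68 (permutation adjusted p = 0.00346 and 0.0455 over the 126 relations), and at r = 0.61 without the 2 farthest arrays. With the interneuron markers r was 0.69 and rho 0.73 (permutation adjusted p = 0.0233 and 0.0212), and r was 0.47 without the 2 farthest. After group means were taken out r was 0.83 with the striatal and 0.72 with the interneuron markers. It was then also 0.75 with thalamus and habenula markers and 0.72 with microglia markers, so the relation was not particular to those cells. The part of any of these cells in the Sfrp2 values was not tested. The genes most like Sfrp2 were Ndufa11 (r = 0.93) and Znrd2 (r = 0.89), and for Sfrp4 Fabp6 (r = 0.75) and Mmp19 (r = 0.74).

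Among the Dickkopf genes, Dkk3 (probe set 10567010, chromosome 7) was the steadiest, with an SD of 0.08 within groups. It was 11.73, 11.83, 11.75 and 11.78 in wild-type control and 11.87, 11.85, 11.86, 11.78 and 11.92 in wild-type ibuprofen mice. It was 12.01, 11.87, 11.83, 11.78 and 11.81 in APP-PS1 control and 11.72, 11.79, 11.92, 11.66 and 11.76 in APP-PS1 ibuprofen mice. All groups overlapped. Like Frzb, Dkk3 gave a positive difference for ibuprofen in wild-type mice (0.09 ± 0.05, SE) and a negative one in APP-PS1 mice (-0.09 ± 0.05, SE). The interaction was -0.18 ± 0.07 (SE, limma adjusted p = 0.214), with a 95% interval of -0.33 to -0.02 before adjustment. Over all genes the median interaction was -0.07. The all-gene medians for ibuprofen had the same signs, at 0.05 in wild-type and -0.02 in APP-PS1 mice. Across the arrays Dkk3 did not follow Frzb (r = 0.02, and -0.48 after group means were taken out, given with no p). Dkk3 correlated with the mean of the CA1 pyramidal cell markers at r = 0.76 and rho = 0.87 (permutation adjusted p = 0.00655 and 0.00063 over the 126 relations), and at r = 0.80 without the 2 farthest arrays. After group means were taken out r was 0.70 with the CA1 markers and 0.75 with the interneuron markers. It was then 0.61 with the striatal and 0.59 with the astrocyte markers, so the relation was not particular to CA1 cells. The part of any of these cells in the Dkk3 values was not tested. The genes most like Dkk3 were Eif2ak3, a kinase of the unfolded protein response (r = 0.89), and Slc36a1, an amino acid transporter (r = 0.89).

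Dkk1, Dkk2 and Wif1 gave no called difference. Dkk1 (probe set 10467006, chromosome 19), the co-receptor blocker, spanned 7.46 to 7.72 in wild-type control, 7.31 to 7.78 in wild-type ibuprofen, 7.48 to 7.56 in APP-PS1 control and 7.41 to 7.80 in APP-PS1 ibuprofen mice. Its largest difference between groups was 0.13 ± 0.09 (SE) for ibuprofen in APP-PS1 mice. Dkk2 (probe set 10496125, chromosome 3) spanned 7.72 to 7.80, 7.37 to 7.91, 7.68 to 7.87 and 7.53 to 8.005 in that order of groups. Wif1 (probe set 10366653, chromosome 10) spanned 7.22 to 7.41, 7.18 to 7.46, 7.19 to 7.28 and 7.15 to 7.56. For these genes the groups overlapped in each of the 4 comparisons, and the 95% intervals of the 4 differences between groups lay within -0.28 and 0.31. For all 3 the arrays on ibuprofen chow covered a wider range than those on control chow in both genotypes. The same held for Sfrp2, Sfrp4 and Dkk3, so it was not particular to these genes. The wild-type control group has 4 arrays against 5, which by itself narrows a range. This description was not tested, and the share over all genes was not taken. The genes most like Dkk1 were Il12a (r = 0.90) and Krtap4-7 (r = 0.89), for Dkk2 Eddm3b (r = 0.89) and Fabp4 (r = 0.89), and for Wif1 Slc12a1 (r = 0.84) and Sh3d21 (r = 0.84).

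**Figure D4:**
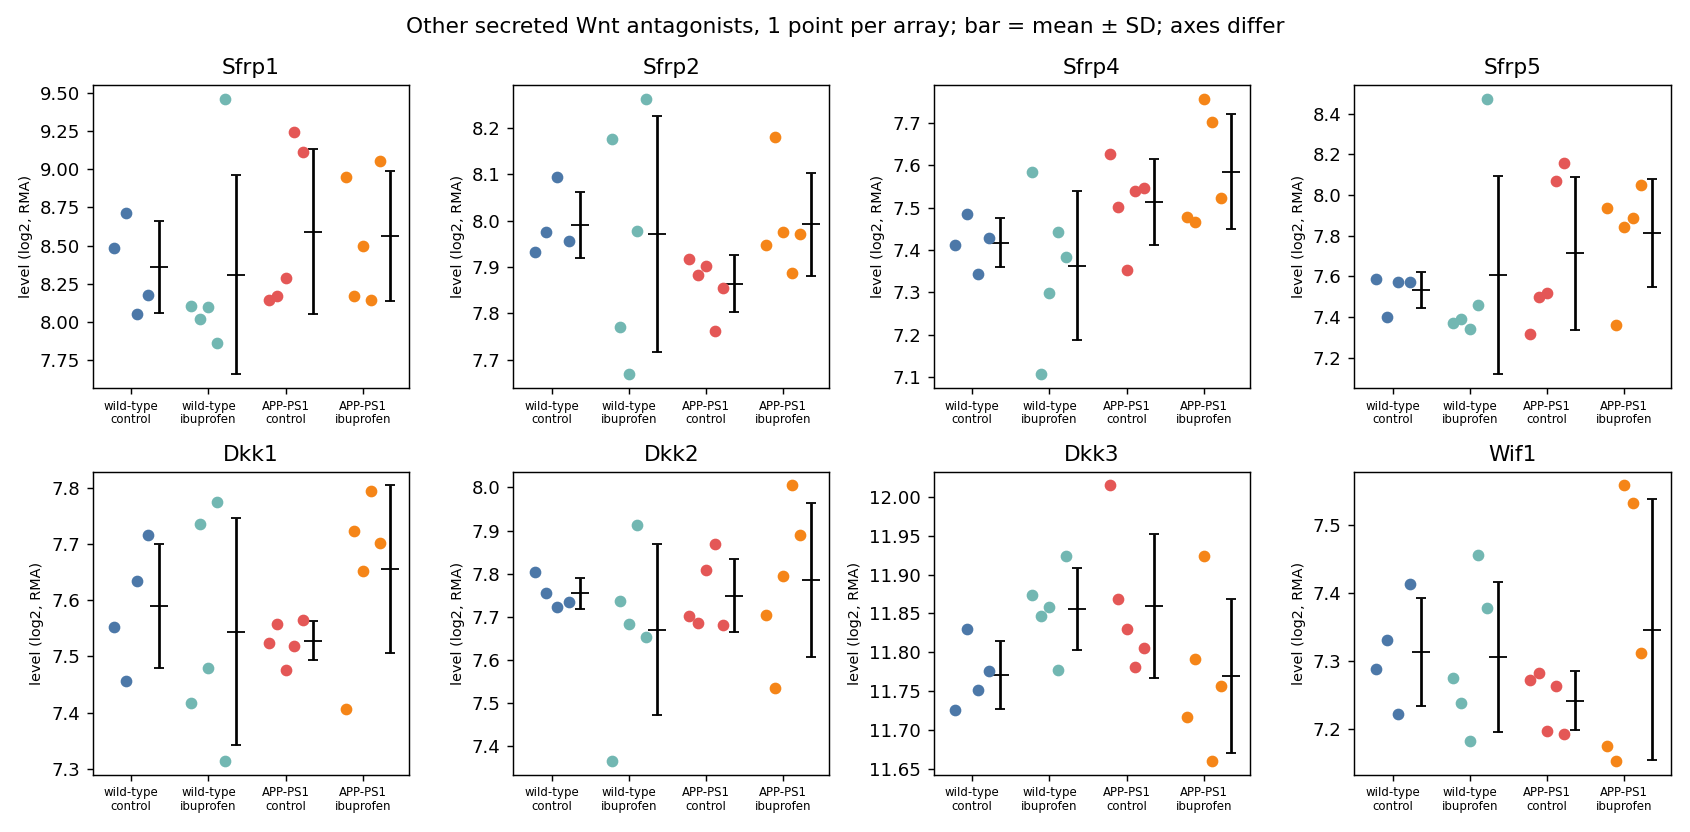
Log2 levels (y axis) of the other 8 members in the 4 groups, 1 point per array with the mean ± SD as a bar, and a separate y axis for each gene. Sfrp1 and Sfrp5 hold a lone high array in the wild-type ibuprofen group and several high arrays in the APP-PS1 groups. Sfrp2, Sfrp4, Dkk1, Dkk2, Dkk3 and Wif1 cover a wider range on ibuprofen than on control chow in both genotypes.

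The antagonists differed in sign among themselves. On ibuprofen chow 7 of 9 were higher in APP-PS1 mice and 2 lower, with a median difference of 0.11 against -0.05 over all genes. At an unadjusted p under 0.05 there were 2 of 9, Frzb (lower) and Sfrp4 (higher), beside 24.5% of all genes, 18.2% lower and 6.25% higher. On control chow 4 were higher and 5 lower, with a median of -0.01 against 0.02 over all genes. For ibuprofen the median was 0.07 in APP-PS1 mice against -0.02, and -0.02 in wild-type mice against 0.05. Frzb and Sfrp4 ran opposite ways across the arrays (r = -0.67, and -0.46 after group means were taken out), while Sfrp1 and Sfrp5 ran together (r = 0.85, and 0.86). These correlations between members carry no p.

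**Figure D5:**
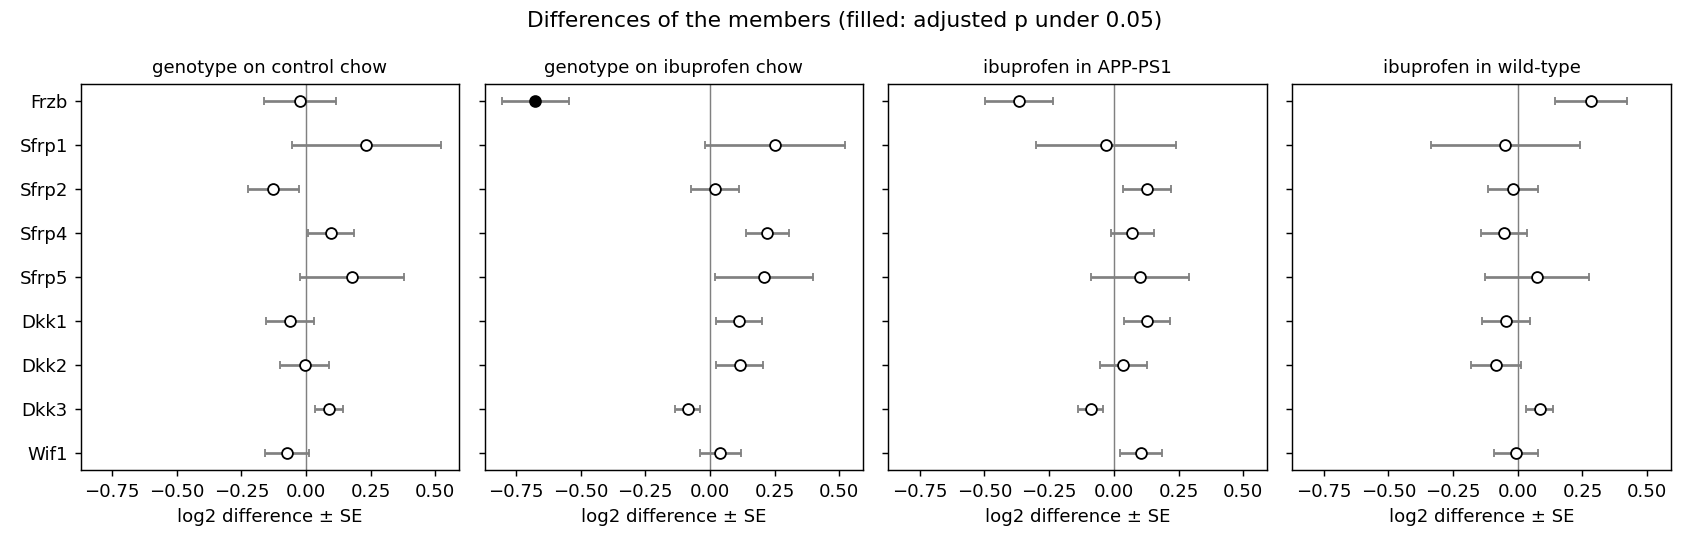
Log2 difference ± SE (x axis) of each member in the 4 comparisons of 2 groups, with filled points for an adjusted p under 0.05. Frzb on ibuprofen chow, at -0.67, is the only filled point, and the other members lie between -0.13 and 0.25.

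The rest of the pathway was read from 6 lists of 83 genes, 82 of which were measured. None was called in any of the 7 comparisons, in either direction. On ibuprofen chow 17 of 82, or 20.7%, had an unadjusted p under 0.05, beside 24.5% of all genes. Among 19 Wnt ligands 13 were higher in APP-PS1 mice on that diet (median 0.07). Wnt7a, a ligand of synapses and progenitors, had the smallest p of the list at -0.41 ± 0.12 (SE, limma adjusted p = 0.123), followed by Wnt6 (0.26) and Wnt9b (0.28). On ibuprofen chow Wnt7a spanned 8.79 to 9.61 in the wild-type group and 8.45 to 8.76 in the APP-PS1 group, without overlap, as for 2.06% of all genes in this direction. The wild-type median was 8.86, near the low end of that span. Leave-out values were not taken for single pathway genes. Of the 20 receptors and co-receptors, with 7 higher and a median of -0.05, Ror1, a receptor for Wnt5a, gave -0.25 ± 0.08 (SE, limma adjusted p = 0.131), Fzd3 -0.16 and Ror2 0.19. In the wild-type ibuprofen group the median of Ror1 was 9.49, near the low end of its span of 9.48 to 9.89.

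Among 13 measured feedback and target genes, 5 were higher on ibuprofen chow and the median was -0.09. Ccnd1, the cyclin D1 gene, gave -0.28 ± 0.09 (SE, limma adjusted p = 0.130), and Nkd2, a feedback inhibitor of Dishevelled, -0.26 ± 0.09 (SE, limma adjusted p = 0.145). Ccn4, a target gene, went the other way at 0.22 ± 0.09 (SE, limma adjusted p = 0.163). Axin2, a common readout of β-catenin signalling named here for that role after its values were seen, gave -0.09 ± 0.08 (SE, limma adjusted p = 0.437). Of 8 other extracellular or membrane inhibitors 7 were higher (median 0.11, beside -0.05 over all genes), with Sost at 0.22 (limma adjusted p = 0.190). Sostdc1 stands both in this list and among the choroid plexus markers, all 14 of which were higher there. Of 7 agonists and secretion genes 3 were higher (median -0.03), with Rspo4 at 0.27, Wls, the carrier of Wnt proteins, at 0.22 and Porcn, which acylates Wnt proteins, at -0.17. Of 15 cytoplasmic and nuclear genes 5 were higher (median -0.06), with Bcl9, a β-catenin co-activator, at -0.16, Csnk1e at -0.11 and Pygo2 at -0.16. In the wild-type ibuprofen group Csnk1e had a median of 11.54 in a span of 11.51 to 11.81. There Pygo2 had 9.14 in 9.12 to 9.45, and Bcl9 11.20 in 11.14 to 11.36. On control chow 0 of the 82 had an unadjusted p under 0.05, beside 5.87% of all genes. For ibuprofen there were 2 of 82 (2.44%) in APP-PS1 mice, beside 6.48% of all genes. In wild-type mice there were 7 of 82 (8.54%), beside 11.0% of all genes. Nkd2 was among the latter at 0.26 ± 0.10 (SE, limma adjusted p = 0.432).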

How the data were processed

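RNA abundance was measured on 19 arrays. The authors deposited 1 log2 value per probe set and array, and the submitters' processing notes name Partek 6.5 and RMA. RMA settings are not given in the sources used here, and quantile steps can pull arrays together. An array annotation of 2016 gave 1 symbol to 21789 of 35556 probe sets, or 19938 genes, of which 19856 matched RefSeq by Entrez number.

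One limma fit (limma 3.58.1, R 4.3.3) held a mean per group, an intensity trend and 15 residual degrees of freedom. It gave 7 two-sided comparisons, with p-values adjusted by Benjamini and Hochberg over all genes and a threshold of 0.05. The script was tested on simulated data. The number of arrays limits the precision. The labels name replicates, not animals or batches, so p-values measure the spread between these samples, which may be technical.

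Correlations used exact permutation under 10 arrays and 100000 permutations otherwise (scipy 1.17.1, Python 3.11.15). Arrays were shuffled across groups, so a permutation p also reflects differences between groups. Figures used matplotlib 3.10.9. The members, lists and most alternatives were chosen with earlier results of these data known. Named genes were the members, the genes most correlated with them, and up to 3 genes with the smallest p in each pathway list. Predicted genes without a standard name were skipped when the most correlated genes were picked. Alternatives were other normalizations, filters, probe set rules and fit settings, array weights, marker covariates, the replicate block and leaving out arrays. The dentate covariate was added after seeing the data.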

Additional observations from a re-analysis of the deposited data

Results flagged for a closer look

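In 4 of the 36 sets of values of 1 member in 1 group, a single array lay far from the rest of its group. Chance alone gives about 1 in 20 such sets if values are normal and sets independent. Sfrp1 and Sfrp5 were flagged on the same array and correlated at r = 0.85, so no excess is read from these counts. Frzb was at 8.45 in APP-PS1 ibuprofen chow replicate 3, where the next lowest array was at 9.25. That array was also the lowest for the dentate granule cell markers. Sfrp1 was at 9.46 and Sfrp5 at 8.47 in wild-type ibuprofen chow replicate 5, where the next highest arrays were at 8.10 and 7.46. The choroid plexus marker mean of that array was 10.31, beside 7.70 to 8.16 in the other 4 arrays of its group. Sfrp5 was at 7.40 in wild-type control chow replicate 2, below the next array at 7.57.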

How the results depend on the processing

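The one called member difference, Frzb between genotypes on ibuprofen chow, ran from -0.69 to -0.26 over 11 alternatives and from -0.77 to -0.50 over 19 leave-outs, always negative. Members called there went from 1 to 0 with quantile normalization (adjusted p = 0.0661), array median centring (0.0585), the 3 arrays that stand apart left out (0.141) or the dentate marker covariate (0.999). The count was 2 with array weights (Sfrp4, 0.36, adjusted p = 0.00891), and 0 to 1 over leave-outs. The call ended when any of 5 arrays was dropped, replicate 4 of APP-PS1 or replicates 1, 2, 3 and 5 of wild-type mice, all on ibuprofen (adjusted p = 0.0517 to 0.0619). Array weights also called Frzb in the interaction (1 member, adjusted p = 0.0483), and 2 members, Frzb and Sfrp4, in the average genotype comparison (adjusted p = 0.0335 and 0.0477). The cause was not tested.

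The 63 member differences changed sign in 59 of 693 refits under alternatives and in 84 of 1197 leave-outs, none of them a called difference.

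Over all genes, 54 were called between genotypes on ibuprofen chow. This was 128 without the dimmest 25% of genes, 1004 with array weights, 197 with the replicate block, 33 without the 3 arrays and 2 with the dentate covariate, and 10 to 1490 over leave-outs, lowest without APP-PS1 ibuprofen chow replicate 4 and highest without wild-type ibuprofen chow replicate 4. On control chow 2 were called, 8 with array weights, 4 with the meningeal covariate, 4 with the replicate block and 2 to 4 over leave-outs. The average genotype comparison called 5, but 8 with quantile normalization, centring or without the 3 arrays, 342 with array weights, 12 with the meningeal covariate, and 3 to 52 over leave-outs. Array weights called 108 for ibuprofen in APP-PS1 mice (0 to 3 over leave-outs), 2 for it in wild-type mice and 174 in the interaction (0 to 13), each beside 0.

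Arrays with the same replicate number correlated in their deviations from group means at -0.27 to 0.60 (median 0.13, 17 of 27 pairs over 0.1), and arrays with different numbers at a median of -0.05 (29 of 108 over 0.1). For 11 of 19 arrays the best correlated array of another group had their own number. This hints at a shared component, but not every pair passed 0.1 and the labels give the numbers no meaning, so they were not taken as pairs. With the replicate block the Frzb difference stayed at -0.67 (adjusted p = 0.0253).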
